A study of Mus musculus with 2 samples.

Results

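The genes described here encode the enzymes that build cholesterol and fatty acids from acetyl-CoA, the proteins that regulate those enzymes, and a pair of lipid uptake and transport proteins. They were taken from a list of 31 gene symbols in 5 roles: the mevalonate branch, the sterol branch, the SREBP regulators, uptake and transport, and fatty acid enzymes. A probe set, which is a group of short oligonucleotides summarised into 1 signal, was included when the platform annotation gave it a single symbol on the list. That selected 73 of 45101 probe sets and 30 of 18193 named genes. Acat2, which encodes a cytosolic acetyl-CoA acetyltransferase, had no such probe set and enters no count below. The selection rule reads symbols only, although the list was drawn up with earlier results of these data known.

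The series compared mouse embryonic stem (ES) cells labelled as a constitutive knockout of Eed (Eed KO) with ES cells labelled as their control. Eed belongs to the Polycomb complex PRC2, a histone H3 methyltransferase that keeps developmental genes silent. Total RNA of each was hybridized to 1 Affymetrix MOE430.2 array, so there were 2 arrays and 1 array per group. No strain, clone, passage or allele and no culture conditions are given in the labels. With 1 array on each side no SD, standard error or p-value between conditions exists, and every difference below is a description of this pair. Precision is limited throughout by having so few arrays.

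As background, cholesterol synthesis starts when acetyl-CoA units are joined and converted to mevalonate and then to isoprenoid diphosphates. These are joined into squalene, which is oxidised, cyclised to lanosterol and trimmed to cholesterol. Transcription of most of the enzymes is driven by the sterol regulatory element binding proteins (SREBPs), encoded by Srebf1 and Srebf2. SREBPs are made as membrane precursors that Scap escorts to the Golgi for cleavage when membrane sterol is low, and that the Insig proteins hold back when sterol is plentiful. Srebf2 acts mainly on the cholesterol genes and Srebf1 mainly on the fatty acid genes. At promoters, SREBPs bind sterol regulatory elements, usually beside sites for the factors NF-Y and Sp1.

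The promoters of the genes that differed most are shown because SREBPs and NF-Y act there. RefSeq promoter windows (GRCm38.p6) were matched by symbol for 24 of the 30 genes. The entries that did not match are Fdps, Fdft1, Sqle, Stard4, Scd1 and Scd2. The 250 bases before the annotated start are printed 5′ to 3′ on the gene's strand, with capitals marking matches on either strand to the sterol regulatory element TCACNCCAC or to the NF-Y box CCAAT (read as ATTGG on the other strand). For Vldlr the more upstream of its annotated windows is shown.

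Idi1, chr13:8885356-8885605, plus strand: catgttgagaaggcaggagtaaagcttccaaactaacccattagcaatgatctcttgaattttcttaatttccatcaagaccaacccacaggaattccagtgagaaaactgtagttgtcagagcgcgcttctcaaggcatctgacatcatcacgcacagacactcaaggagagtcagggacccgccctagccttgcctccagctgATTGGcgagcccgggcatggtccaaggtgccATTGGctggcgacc
Hmgcs1, chr13:119690101-119690350, plus strand: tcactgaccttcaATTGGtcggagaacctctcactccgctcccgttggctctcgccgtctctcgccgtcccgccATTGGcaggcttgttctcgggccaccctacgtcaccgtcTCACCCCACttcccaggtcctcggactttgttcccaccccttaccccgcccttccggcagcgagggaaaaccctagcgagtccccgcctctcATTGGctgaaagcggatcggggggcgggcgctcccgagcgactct
Insig1, chr5:28071162-28071411, plus strand: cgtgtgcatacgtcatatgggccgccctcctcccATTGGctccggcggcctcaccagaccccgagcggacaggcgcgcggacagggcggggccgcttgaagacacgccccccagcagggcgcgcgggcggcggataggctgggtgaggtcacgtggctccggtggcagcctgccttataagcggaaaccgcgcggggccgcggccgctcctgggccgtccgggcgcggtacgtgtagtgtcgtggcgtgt
Lss, chr10:76531355-76531604, plus strand: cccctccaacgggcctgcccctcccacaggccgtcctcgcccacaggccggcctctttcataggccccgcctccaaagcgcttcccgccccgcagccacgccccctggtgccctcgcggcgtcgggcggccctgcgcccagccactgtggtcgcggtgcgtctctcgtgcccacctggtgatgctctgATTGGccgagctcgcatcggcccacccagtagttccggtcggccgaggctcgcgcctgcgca
Vldlr, chr19:27216234-27216483, plus strand: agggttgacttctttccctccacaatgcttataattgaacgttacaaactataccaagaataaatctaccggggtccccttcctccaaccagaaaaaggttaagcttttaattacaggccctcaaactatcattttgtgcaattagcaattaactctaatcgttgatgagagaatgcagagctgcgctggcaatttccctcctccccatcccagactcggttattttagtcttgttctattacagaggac

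The Hmgcs1 window held the exact element TCACCCCAC, between 137 and 129 bases before the start, and 3 NF-Y boxes. It was the only match to TCACNCCAC among the 24 genes (4.17%), against 1.23% of the 11097 measured genes with a window. The Idi1 window held 2 NF-Y boxes, the closest between 14 and 10 bases before the start, and the Insig1 and Lss windows held 1 each. In all, 20 of the 24 genes (83.3%) had an NF-Y box in at least 1 window, against 40.1% of the measured genes. The Sp1 box GGGCGG was present in 20 of 24 (83.3%), against 61.7%, and the E-box CACGTG in 5 of 24 (20.8%), against 9.75%. All motifs were searched on both strands, and none of the 4 shares letters with another in a way that forces them to overlap. The Vldlr window shown held neither capitalised motif, and its other window held 1 NF-Y box. A letter match is a description of the sequence, and no binding was measured in this series.

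All 30 genes were above the signal floor of 61.3 on both arrays, so no direction was set by the floor. The floor is the 40th percentile of all signals, and lower signals were raised to it before ratios were taken. Where a gene had several probe sets, the brightest by mean log2 signal stands for it and is called its main probe set. In the Eed KO array 23 of the 30 genes had a lower signal than in the control array, against 41.1% of the 13794 measured genes. At least 2-fold lower were 5 of 30 (16.7%): Idi1, Hmgcs1, Insig1, Fdft1 and Lss. Among all measured genes 3.27% were that much lower. At least 1.5-fold lower were 13 of 30, against 10.2% of all. Only Vldlr was at least 2-fold higher (3.33% of the genes, against 10.8% of all). The median log2 ratio of Eed KO over control was -0.46 for the 30 genes and 0.12 for all measured genes.

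Most of these genes have strong signals, and strong genes as a whole leaned lower. Of the 24 members with a mean signal at least 10 times the floor, 4 were at least 2-fold lower, against 3.53% of the 5781 genes as bright. At 1.5-fold 12 of the 24 were lower, against 13.0%, and 20 of the 24 had a ratio below 1, against 54.1%. None of the 24 was at least 2-fold higher (0 of 24), against 5.10%. Their median was -0.58, and that of all bright genes was -0.05.

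**Figure D1:**
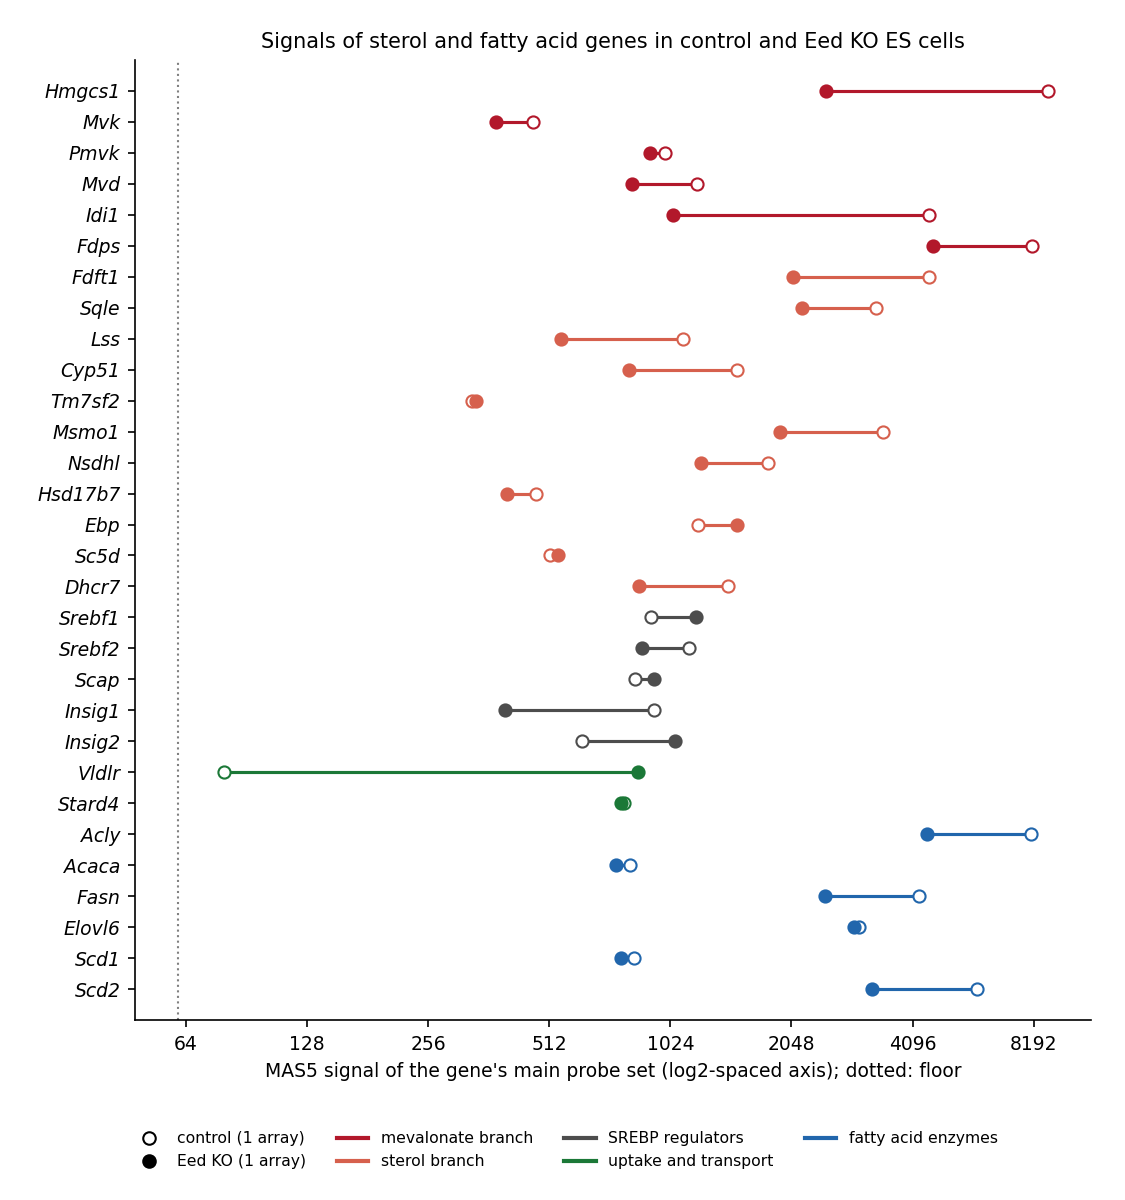
MAS5 signal (log2-spaced axis) of the main probe set of each of the 30 genes in the control array (open circles) and the Eed KO array (filled circles), coloured by role, with the floor of 61.3 dotted. Most filled circles lie to the left of the open ones, with Idi1 moving from 4487 to 1038, while Vldlr moves the other way from 79.6 to 852.5.

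Enzymes of the mevalonate branch, which makes the isoprenoid units, all had lower signals in the Eed KO array. A ratio below 1 was seen for 41.1% of all measured genes. The 6 measured genes of the branch had a median log2 ratio of -0.68. Of these, 2 were at least 2-fold lower (2 to 3 over the settings), against 3.27% of all measured genes. Idi1, the isomerase that interconverts the isoprenoid building blocks, gave a control signal of 4487 and an Eed KO signal of 1038, 4.32-fold lower. Its other probe set gave nearly the same log2 ratio (-2.12 beside -2.11). It ranked 42 from the lowest among the 13794 measured genes.

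Hmgcs1 encodes the HMG-CoA synthase at the entry of the branch, and its window above held the exact match to TCACNCCAC. Its signal was 8880 in control cells and 2491 in Eed KO cells, 3.56-fold lower. Of its 4 other probe sets, 3 were lower as well, with log2 ratios down to -2.11. The fourth, near the floor at 75.1 and 78.7, had a log2 ratio of 0.07.

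The remaining genes of the branch differed less. Fdps, which encodes farnesyl diphosphate synthase, read 8109 and 4600, 1.76-fold lower. Mvd, the decarboxylase that yields the first isoprenoid, read 1191 and 823.0, 1.45-fold lower, while its second probe set was past 2-fold with a log2 ratio of -1.14. The kinases that act before Mvd were close to level. Pmvk, phosphomevalonate kinase, read 992.9 and 913.5. Mvk, mevalonate kinase, read 467.3 and 376.6 on its main probe set, and its other probe set went the other way (log2 ratio 0.37).

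The sterol branch runs from squalene synthase to cholesterol. In the Eed KO 8 of its 11 genes had lower signals, against 41.1% of all measured genes. The median log2 ratio was -0.61. At least 2-fold lower were 2 genes (0 to 5 over the settings), against 3.27%, and 6 were at least 1.5-fold lower, against 10.2%. At least 1.5-fold higher were 0 of the 11, against 3210 of the 13794 measured genes. Fdft1, squalene synthase and the first committed step to sterols, read 4492 and 2069, 2.17-fold lower. Its second strong probe set gave a log2 ratio of -1.05. Another, weak one gave -0.10, from a control signal of 65.5 and an Eed KO signal under the floor. Lss, which cyclises squalene epoxide to lanosterol, read 1103 and 547.9, 2.01-fold lower and so just past the 2-fold limit. This probe set is one of those marked as possibly shared with other transcripts. A second Lss probe set gave a log2 ratio of -0.87, which is also the gene's value without shared probe sets, and a weak one that exceeded the floor only in the Eed KO gave 0.10. With a pseudocount the value was -0.93, and as the mean over all probe sets -0.59, so the 2-fold call of Lss depends on these choices.

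Next in size were the enzymes that trim lanosterol. Cyp51, lanosterol demethylase, read 1501 and 805.9, 1.86-fold lower, and its second probe set lay just past 2-fold at a log2 ratio of -1.03. Msmo1, the methylsterol oxidase, read 3454 and 1913, 1.81-fold lower. Dhcr7, a reductase of the last step, read 1423 and 856.0, 1.66-fold lower. These 3 genes moved by similar amounts, and none reached 2-fold on its main probe set.

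Smaller differences were seen for Sqle and Nsdhl. Sqle, squalene epoxidase and a controlled step of the pathway, read 3322 and 2179, 1.52-fold lower on its single probe set. Nsdhl, a sterol dehydrogenase, read 1788 and 1223, 1.46-fold lower. Both lay well short of the ratio of Fdft1, the enzyme before Sqle.

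The other sterol genes showed little or no difference. Tm7sf2, a sterol reductase, read 329.7 and 335.8. Sc5d, a sterol desaturase, read 513.9 and 536.8, with its other probe sets on either side of 0 (log2 ratios -0.32 and 0.28). Ebp, the sterol isomerase, was the one gene of the branch with a ratio clearly on the higher side, at 1197 and 1497 (log2 ratio 0.32). Hsd17b7, a sterol ketoreductase, read 473.8 and 402.7, but its 4 probe sets were split in direction. The signs of Tm7sf2 and Sc5d turned with the scaling of the arrays, while that of Ebp did not.

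**Figure D2:**
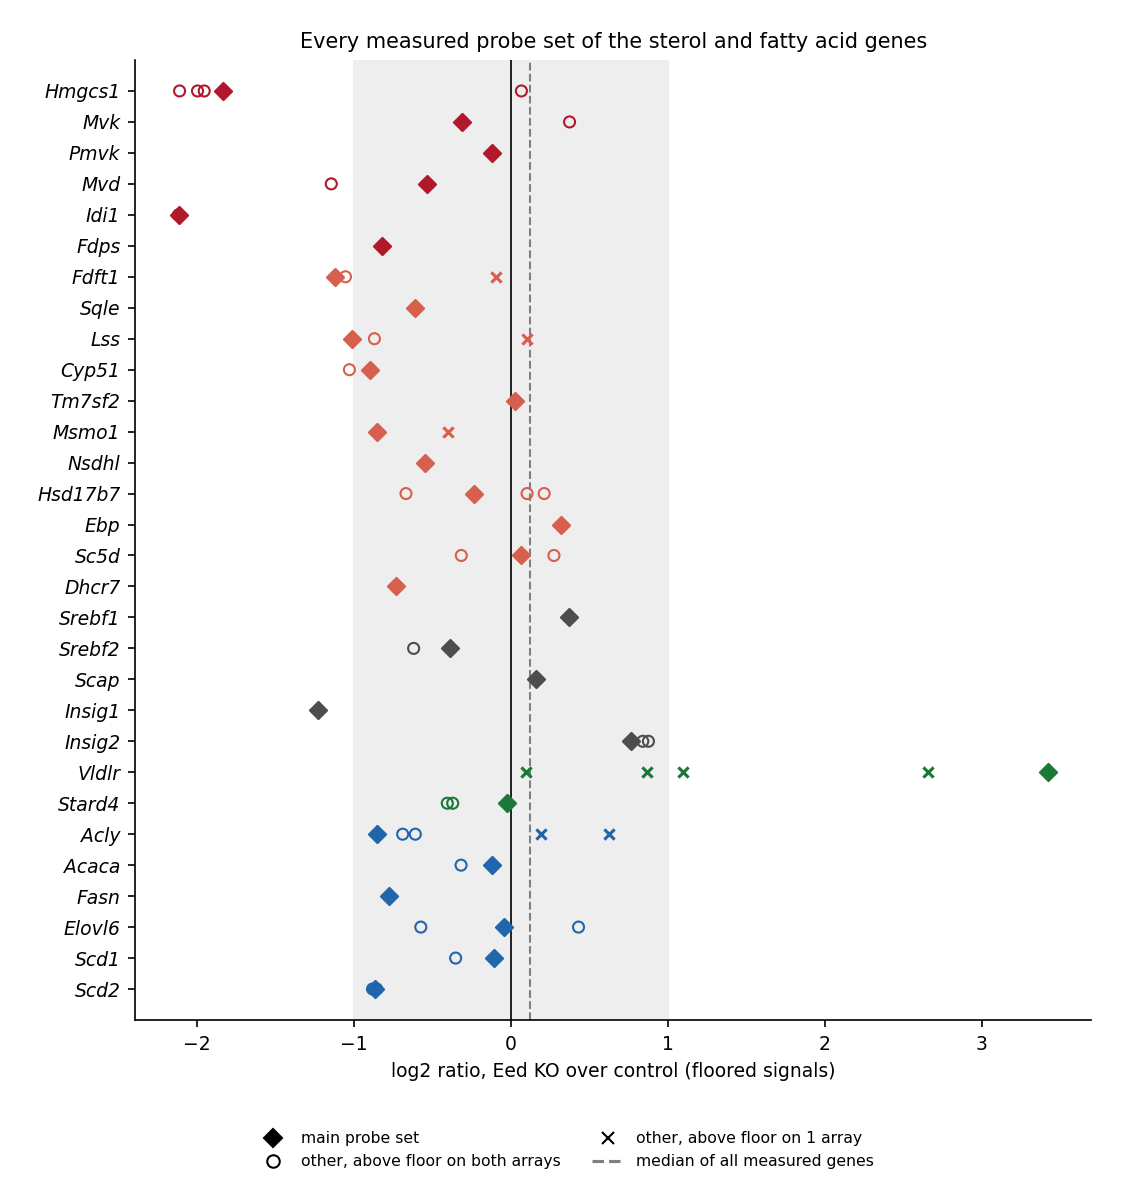
The log2 ratio of Eed KO over control for every measured probe set of the 30 genes. Diamonds are the main probe sets, open circles other probe sets above the floor on both arrays, and crosses those above it on 1 array. The grey band spans 2-fold either way and the dashed line is the median of all measured genes, 0.12. The strong probe sets of Hmgcs1, Idi1, Fdft1, Scd2 and Insig2 lie close together, and those of Vldlr are spread from 0.10 to 3.42.

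Different probe sets of a gene are the only repeated measurement on these arrays. For genes with at least 2 probe sets above the floor on both arrays, the SD of 1 probe set's log2 ratio fell with signal. It was 0.45 where the weaker one read between 64 and 256, and 0.29 between 256 and 1024. Between 1024 and 4096 it was 0.21, and above 4096 it was 0.16. On the main probe sets the differences of Idi1, Hmgcs1 and Fdft1 were larger than this spread, and those of Pmvk, Tm7sf2, Sc5d and Scd1 were within it. The spread covers probe and isoform differences on the same RNA and says nothing of how cultures vary. Of the 58 member probe sets above the floor on both arrays, 43 had a ratio below 1, against 44.4% of all 21064 such probe sets. At least 2-fold lower were 12, against 3.48%, and 1 was at least 2-fold higher, against 8.92%. The 4 strong Hmgcs1 probe sets are among the 12, and probe sets of a gene are not independent. Among the 19 genes with another measured probe set, every other one had the same sign as the main one in 12. These include 9 probe sets above the floor on 1 array only, among them those of Vldlr, whose sign the floor fixes. The share over all genes with several probe sets was not computed, so the count is not read as good or poor agreement.

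The SREBP regulators had no common direction. Their median log2 ratio was 0.16 over 5 genes, and its sign turned under scaling to a common median or on the poly-A spikes. The largest difference was in Insig1, which encodes a protein that holds the SREBP precursor back and is itself a known SREBP target. Its single probe set went from 931.8 in control cells to 397.4 in Eed KO cells, 2.34-fold lower. Its relative Insig2 went the other way, from 617.2 to 1049 (log2 ratio 0.77), and its other probe sets gave 0.84 and 0.88.

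The transcription factor genes themselves differed modestly and in opposite directions. Srebf2 read 1138 and 870.9, 1.31-fold lower, and its other probe set gave a log2 ratio of -0.62. Srebf1 read 917.4 and 1186 (log2 ratio 0.37). Its single probe set does not separate the promoter isoforms known for this gene. Scap, the escort protein, read 835.5 and 933.8. None of these values measures the cleaved, active form of the proteins.

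Of the uptake and transport pair, Vldlr stood apart. It encodes the very low density lipoprotein receptor, and its main probe set went from 79.6 in control cells to 852.5 in Eed KO cells, a log2 ratio of 3.42. The control value lies close to the floor. The other 4 measured probe sets exceeded the floor only in the Eed KO, so their direction was fixed and their log2 ratios, from 0.10 to 2.66, are lower bounds. The main probe set carries a suffix that marks possible matches to other transcripts. Among the probe sets without such a suffix (_x_at or _s_at), 1 went from 3.5 to 386.6 (at least 6.31-fold) and another from 8.9 to 131.4 (at least 2.14-fold). The one with the highest mean log2 signal went from 29.4 to 65.6, barely above the floor, and gives only a lower bound of 0.10 on the log2 scale. The size for Vldlr therefore rests on which probe set is read. Stard4, a carrier that moves cholesterol between membranes and is known as an SREBP target, read 786.3 and 772.8. Its other probe sets gave log2 ratios of -0.40 and -0.37.

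All 6 fatty acid enzymes had lower signals in the Eed KO in the values as deposited, against 41.1% of all measured genes. None was at least 2-fold lower, against 3.27%. Elovl6 turned just above 1 after quantile normalization and lowess (log2 ratios 0.04 and 0.07). With the poly-A spikes and the same median, 2 and 3 of the 6 were at least 2-fold lower, against 5.57% and 7.53% of all. Their median log2 ratio was -0.45. On their main probe sets they split into a set of 3 genes between 1.71- and 1.82-fold lower and a set of 3 close to level. Scd2, a stearoyl-CoA desaturase, read 5906 and 3244, 1.82-fold lower, and its other probe sets gave log2 ratios of -0.85 and -0.88. Acly, which makes cytosolic acetyl-CoA from citrate, read 8067 and 4459, 1.81-fold lower. The strong Acly probe sets were all lower, while 2 weak ones that were above the floor only in the Eed KO were higher, up to a log2 ratio of 0.62. Fasn, the fatty acid synthase, read 4254 and 2485, 1.71-fold lower on a single probe set.

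Close to level on their main probe sets were Acaca, Scd1 and Elovl6. Acaca, the acetyl-CoA carboxylase that supplies malonyl-CoA to Fasn, read 813.3 and 750.1, and its other probe set gave a log2 ratio of -0.32. Scd1, the other desaturase, read 833.0 and 772.5. Its other probe set went from 553.8 to 434.1 (log2 ratio -0.35). Elovl6, an elongase, read 3013 and 2924, with its other probe sets in both directions (log2 ratios -0.57 and 0.43). The desaturase relatives therefore differed from each other in size on these arrays, less so by the other Scd1 probe set. Their sequences are similar, and cross-hybridization between them was not tested.

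**Figure D3:**
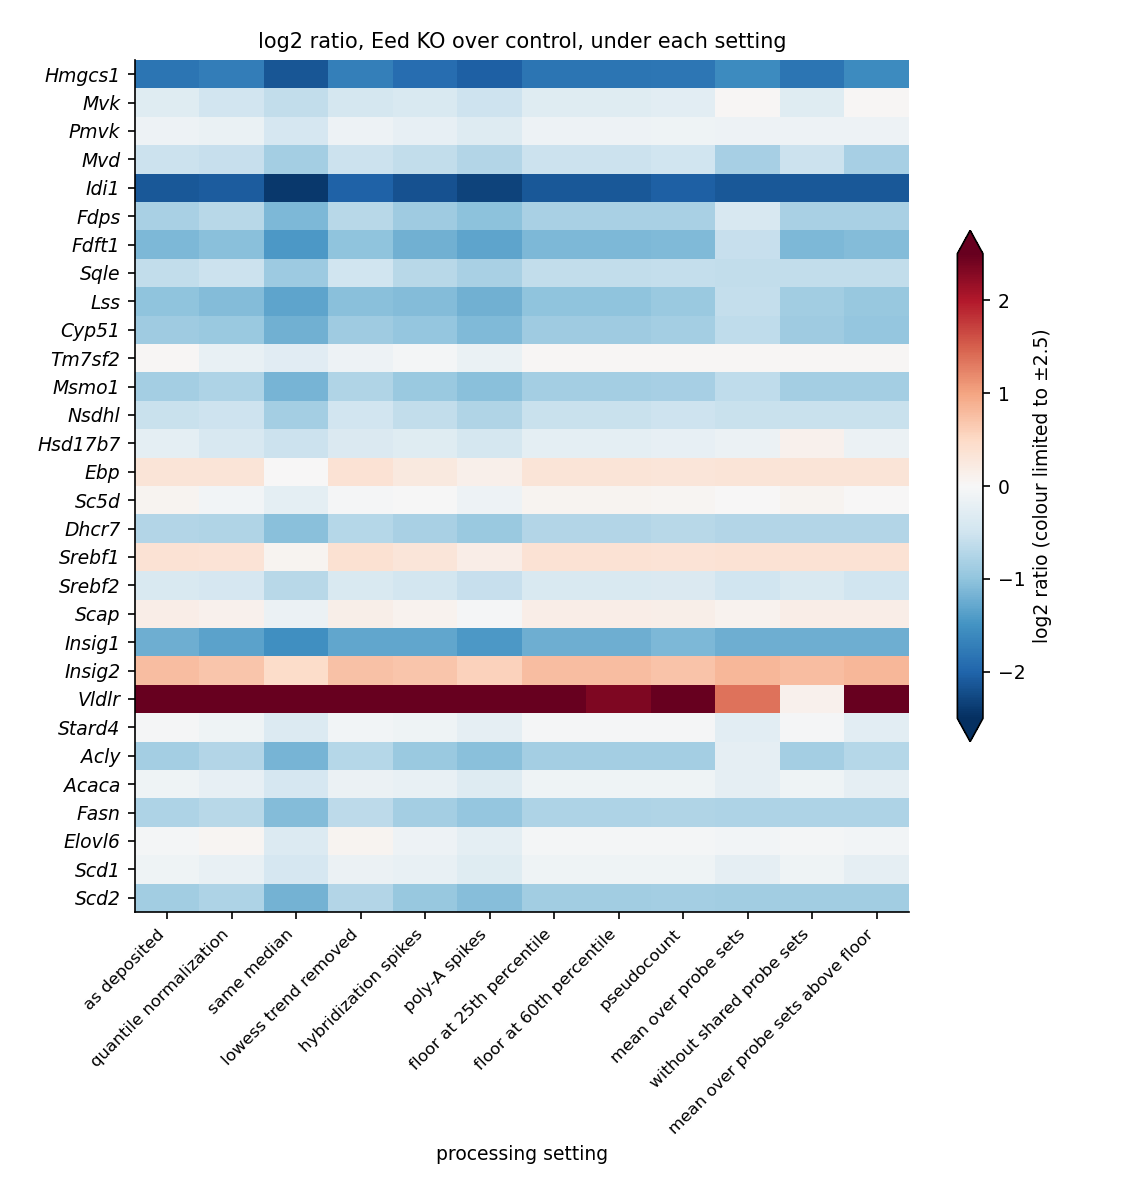
The log2 ratio of Eed KO over control of each of the 30 genes (rows) under the deposited values and each alternative setting (columns), blue lower and red higher in the Eed KO, with colour limited at 2.5. Idi1, Hmgcs1 and Insig1 stay blue across every column at 2-fold or more, and the pale Vldlr cell without shared probe sets is a lower bound of 0.10 set by the floor.

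How the arrays are scaled changes the sizes. The deposited signals have the same trimmed mean on both arrays. Scaling to the same median moves all genes down in the Eed KO, from a median log2 ratio of 0.12 to -0.16, and scaling on the poly-A spikes to -0.06. With the same median 12 of the 30 genes were at least 2-fold lower, and with the poly-A spikes 10. As background, 7.53% and 5.57% of all measured genes were that much lower under these settings. Relative to the median of all genes, the 30 genes' median lay lower by between 0.45 and 0.61 on the log2 scale over all 12 settings. A ratio below 1 held in all 12 settings for 20 of the 30 genes, against 37.6% of the 9960 genes measured in every setting.

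Genes around the pathway were read from 5 lists holding 48 measured genes that are not members, with up to 4 of each named by size of difference. In these lists no gene reached 2-fold lower in the values as deposited, against 3.27% of all measured genes. With so small a share, finding none among 48 genes does not set these lists apart. Over the 12 settings 0 to 2 of the further synthesis enzymes were at least 2-fold lower. The count was 2 with the same median and with the poly-A spikes, against 7.53% and 5.57% of all. Further synthesis enzymes had counts close to the overall shares: 2 of 14 measured genes were at least 2-fold higher, against 10.8% of all. A ratio below 1 was seen for 6 of the 14, against 41.1%, so they did not lean lower as the members did. Members and lists were both chosen with earlier results of these data known, so this contrast is a description only. Their median was 0.39. Relative to the median of all genes it lay between -0.01 and 0.38 over the 12 settings. Higher were Me1, the malic enzyme that makes NADPH for lipid synthesis (700.0 to 2051, 2.93-fold, although its second probe set gave a log2 ratio of 0.86), and Acss2, which makes acetyl-CoA from acetate (274.4 to 616.6, 2.25-fold, other probe set 1.08). Acacb, the mitochondrial acetyl-CoA carboxylase, was lower at 367.5 and 190.8 (1.93-fold). Oxsm, of mitochondrial fatty acid synthesis, read 151.8 and 271.2, and its other probe set gave -0.08. Of 5 genes for SREBP processing and degradation, 1 was at least 2-fold higher (0 to 1 over the settings), against 10.8% of all. It was Faf2, an ER-associated degradation factor (427.3 to 947.7, 2.22-fold). Mbtps2, which encodes an SREBP-cleaving protease, read 1227 and 953.1, and Rnf139 and Vcp, both of protein degradation, had log2 ratios of 0.10 and -0.32. That list's median was -0.01 and changed sign with the setting.

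Genes of sterol uptake, efflux and storage went the other way from the synthesis enzymes. Of 11 measured, 10 had a ratio above 1, against 58.9% of all measured genes, and 4 were at least 2-fold higher, against 10.8%. The median log2 ratio was 0.76, and over the 12 settings it lay above the median of all genes by 0.57 to 0.69. The count at 2-fold ranged from 1 to 4 over those settings. These 4 genes have weak control signals. Of genes with a mean signal at least 10 times the floor 5.10% were at least 2-fold higher, so among weaker genes the share exceeded 10.8%. Shares for this list and the lists that follow are of all measured genes and are not matched for signal. Abca1, which exports cholesterol from cells, read 261.0 and 846.7, 3.24-fold higher, with its other probe sets at log2 ratios of 1.31 and 1.72. Abcg1, another sterol exporter, read 167.7 and 365.8, 2.18-fold higher. Nr1h3, which encodes a sterol-sensing nuclear receptor known to activate both exporters, read 132.9 in the Eed KO against a control signal below the floor, at least 2.17-fold higher. Lrp1, a lipoprotein receptor, read 257.3 and 599.1, 2.33-fold higher, although its other probe set gave only 0.53.

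Fatty acid uptake and storage genes also had a higher median than all genes. At least 2-fold higher were 4 of 11 measured genes (4 to 5 over the settings), against 10.8% of all measured genes. At least 2-fold lower were 0, against 3.27%. The median log2 ratio was 0.78, and 0.26 as the mean over probe sets. Plin2, the coat protein of lipid droplets, read 1897 and 6062, 3.20-fold higher. Dgat2, which makes triglyceride, read 306.2 and 912.5, 2.98-fold higher, and the fatty acid carrier gene Fabp5 read 6110 and 16328, 2.67-fold higher. Lpl, lipoprotein lipase, had the largest ratio of the list (98.1 to 1304). For fatty acid oxidation 5 of 7 genes had a ratio above 1, against 58.9% of all, and the median was 0.31, or 0.01 with the arrays at the same median. At least 2-fold higher were 2 of the 7 (1 to 2 over the settings), against 10.8% of all. These were Cpt1a, the carnitine transferase that admits fatty acids to mitochondria, and Acadvl, an acyl-CoA dehydrogenase. Cpt1a read 910.1 and 2268, 2.49-fold higher, although its other probe sets gave log2 ratios of 0.84 and 1.08. Acadvl read 1013 and 2429, 2.40-fold higher. Its relatives Acadl and Acadm had log2 ratios of 0.78 and -0.41.

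**Figure D4:**
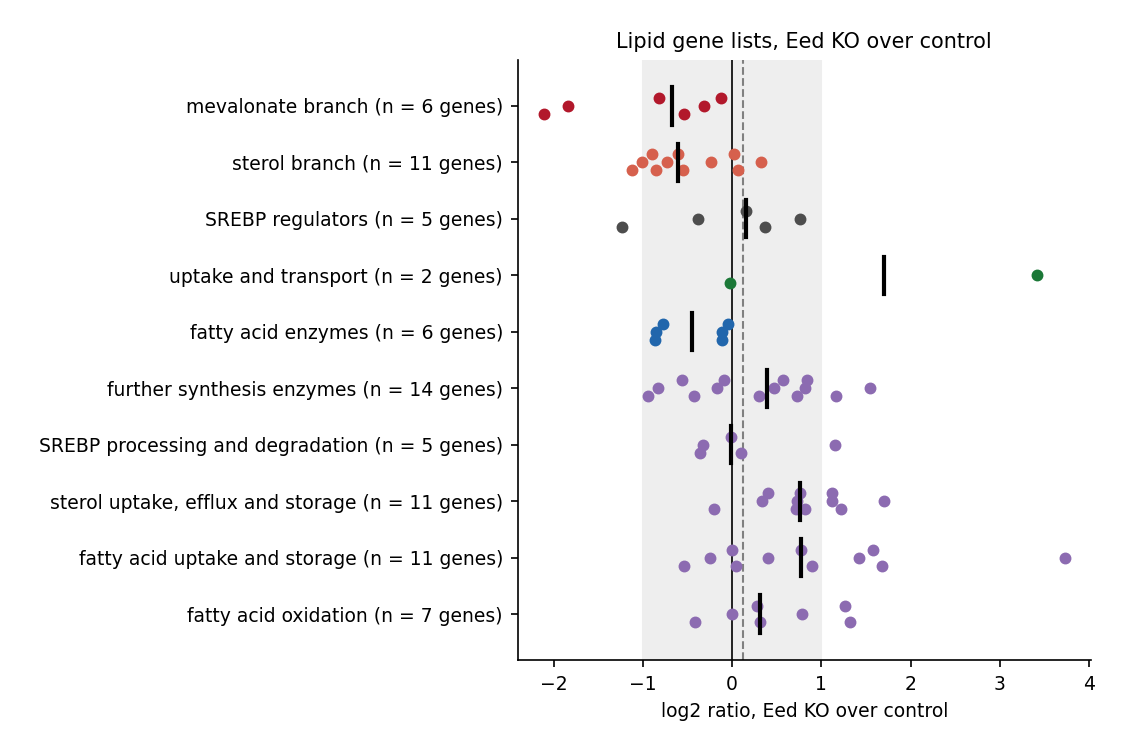
The log2 ratio of Eed KO over control for genes of the 5 roles and of the 5 neighbouring lists, 1 point per measured gene, with a black bar at each list's median, a grey band spanning 2-fold either way and a dashed line at the median of all measured genes. The mevalonate, sterol and fatty acid enzymes have medians of -0.68, -0.61 and -0.45, and the sterol efflux and fatty acid storage lists of 0.76 and 0.78.

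The cell type markers bear on how these values are read. ES cell markers were strong on both arrays: over 8 genes they summed to 117747 (control) and 127671 (Eed KO), and none of the main probe sets differed by 2-fold in the values as deposited. The other measured probe set of Utf1 was lower (log2 ratio -1.57), and 1 marker was at least 2-fold lower with the same median and as the mean over probe sets measured on both arrays. Fibroblast markers were higher in the Eed KO array. Of 18 measured, 13 were at least 2-fold higher (9 to 15 over the settings), against 10.8% of all measured genes. The sum over 20 genes went from 17796 to 40189, with Lum and Fap under the floor on both arrays. Of 7 measured trophectoderm markers 4 were at least 2-fold higher (2 to 6 over the settings), against the same 10.8%. Their sums were 6987 and 14846, with Cdx2 under the floor on both arrays. Of 9 primitive endoderm markers 5 were at least 2-fold higher (2 to 5 over the settings), against 10.8%. Their median log2 ratio was 1.15, or 0.65 as the mean over probe sets, and they summed to 5157 and 6359. Of the 5, Gata4 and Sox7 each had another probe set at a log2 ratio of 0.05. Other probe sets gave 1.10 for Sox17, 1.34 for Pdgfra, and 0.52 and 1.38 for Gata6. Pdgfra is also on the fibroblast list. In bulk RNA, a change in the share of a cell type and a change in RNA per cell cannot be told apart. These values do not say whether other cells were present or the ES cells expressed these markers, and any part of this in the differences of the lipid genes was not tested.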

How the data were processed

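The deposited values are MAS5 signal intensities on a linear scale, 1 per probe set and array, computed with MAS5 per the submitters' processing notes, with no version given there. Per the labels, RNA was extracted with Trizol and labelled with biotin in a one-cycle protocol. The deposited intensities were already scaled: dropping the lowest and highest 2% of probe sets left a mean of 500.003 on both arrays. No detection call or genome build enters the values used here.

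Symbols came from the platform annotation, and probe sets with several symbols (932) or none listed (9160) were not used. Ratios, floors and medians were computed in Python 3.11.15 with pandas 2.3.3 and statsmodels 0.14.6 (lowess, span 0.3), and the computation was tested on simulated data. A gene was measured when its signal exceeded the floor on at least 1 array. Groups came from the sample titles, and no test was possible with 1 array per group. Named were all members, and up to 4 genes of each neighbouring list with the largest absolute log2 ratio. The members and lists were chosen with earlier results of these data known. Alternatives were 5 scalings (quantile, same median, lowess, hybridization spikes and poly-A spikes), a lower and a higher floor (percentiles 25 and 60), adding the floor as a pseudocount, averaging a gene's probe sets, dropping the suffixes _x_at and _s_at, and limits of 1.5- and 3-fold. The mean over probe sets above the floor on both arrays was added after seeing the data. Promoter windows came from RefSeq tables of GRCm38.p6. Some listed neighbouring genes are not analysed here.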

Additional observations from a re-analysis of the deposited data

How the results depend on the processing

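The 5 genes at least 2-fold lower became 12 under scaling to a common median, 10 with scaling on the poly-A spikes, 3 as the mean over all probe sets, 13 at a limit of 1.5-fold and 2 at 3-fold. The other settings gave 4 or 5. Among all measured genes 347 of 13853 were at least 2-fold lower as the mean over all probe sets. In the values as deposited 10.2% of all measured genes were at least 1.5-fold lower. A share of all genes at 3-fold was not computed, so the 2 genes there have no background. The mean over all probe sets takes in weak probe sets that are under the floor on both arrays and so have a ratio of 1, and averaging only probe sets that exceeded it on both gave 4. The 1 gene at least 2-fold higher, Vldlr, became 0 without shared probe sets, where the probe set read gives only a lower bound and others of the gene are still past 2-fold. At 1.5-fold 2 of the 30 genes were higher, against 3210 of the 13794 measured genes. The median log2 ratio of the members stayed below 0 in every setting, between -0.77 and -0.34. The SD of 1 probe set's log2 ratio was 0.34 across the 5418 genes with at least 2 probe sets above the floor on both arrays. Single genes that moved by more than this were 6. Uniform rescaling of an array shifts every member alike, here by less than 0.34, so it could not move a gene that far. Vldlr moved to 2.34 with the floor at the 60th percentile, 2.70 with a pseudocount and 1.36 as the mean over all probe sets. That mean also took Mvk to 0.03, Acly to -0.22, Fdps to -0.41, Fdft1 to -0.57 and Lss to -0.59, so that Fdft1 and Lss were under 2-fold. No paired analysis was possible because each group holds 1 array. Signal over background limits Vldlr, whose control signal is close to the floor, and Nr1h3, whose control signal is under it.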
